A study of Mus musculus with 9 samples.

Results

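The genes described are Il7r, Il21r, Il4ra, Il15ra and Il9r, which encode receptor chains for IL-7, IL-21, IL-4, IL-15 and IL-9. They were chosen by name as partners of the common gamma chain, and all 5 were found among the 22180 genes that the arrays' annotation names singly, each on 1 array feature. RNA of regulatory T cells (Tregs) had been hybridised to 9 arrays of the Affymetrix Gene ST2.0 design for mouse, with 3 arrays for each of Y3/CD103-/-, Y3 and WT mice, all on the C57BL/6 strain. The cells came from the lamina propria of small and large intestine together and had been sorted on a red fluorescent protein tied to Foxp3, an allele that all 3 groups share. Ages, and whether an array holds 1 animal or a pool, are not given in the labels, so the p-values speak to the variation among these 9 arrays, which may be technical. Y3 is not described in the labels either. The title of the series mentions IL-2Rβ, and in earlier work with mice of this name the β chain is a transgene whose cytoplasmic tyrosines were mutated, which weakens signals from IL-2 and IL-15. CD103-/- is loss of the αE integrin chain, and no group lacks CD103 alone.

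The common gamma chain (gene Il2rg) is a signalling subunit that is shared by the receptors for IL-2, IL-4, IL-7, IL-9, IL-15 and IL-21. Partner chains recognise the cytokines, and the assembled receptors activate the kinases JAK1 and JAK3. IL-2 and IL-15 share the partner chain IL-2Rβ. STAT5 then carries most of the signal from IL-2, IL-7, IL-9 and IL-15, STAT6 that from IL-4, and STAT3 that from IL-21. IL-7 keeps naive and memory T cells and innate lymphoid cells alive, while resting Tregs depend mainly on IL-2 and usually carry little IL-7 receptor.

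Il7r fell in both mutant groups and Il21r rose in Y3/CD103-/-, and the other genes passed the test in no comparison. Because these 2 genes changed, the stretch around an annotated transcription start of each is shown, from 250 bases before to 50 bases after the start, as held by RefSeq for GRCm38.p6. The start is the one that the RefSeq promoter table uses, which for both genes lies inside the outermost bounds of the gene in the RefSeq gene table. The Il7r window lies at chr15:9529827-9530126 on the minus strand and the Il21r window at chr7:125603179-125603478 on the plus strand. Capitals mark matches on either strand to short motifs of factors that act with these receptors: TTCNNNGAA (the GAS element of STAT factors), the same letters with 1 more free base (a STAT6-type element), TGTTTAC (FOXO type), GGAAGT (ETS type) and TGTGGT (RUNX type).
Il7r: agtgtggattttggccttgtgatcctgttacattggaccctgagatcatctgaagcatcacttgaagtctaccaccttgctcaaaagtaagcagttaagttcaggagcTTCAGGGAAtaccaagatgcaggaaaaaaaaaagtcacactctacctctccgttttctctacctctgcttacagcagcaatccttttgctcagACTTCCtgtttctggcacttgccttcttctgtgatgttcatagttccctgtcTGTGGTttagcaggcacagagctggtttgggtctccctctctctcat
Il21r: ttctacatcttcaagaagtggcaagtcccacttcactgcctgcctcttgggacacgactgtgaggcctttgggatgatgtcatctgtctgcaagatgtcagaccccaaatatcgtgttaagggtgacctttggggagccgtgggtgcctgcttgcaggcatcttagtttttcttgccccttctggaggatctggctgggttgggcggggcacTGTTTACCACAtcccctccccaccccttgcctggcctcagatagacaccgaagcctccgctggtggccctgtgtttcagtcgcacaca
Counted from the first base printed, the Il7r window held TTCAGGGAA at bases 109 to 117, a match to the GAS pattern, which was present in 8.3% of 32851 promoter windows of the same length. It also held the ETS-type letters, reversed as ACTTCC, at bases 202 to 207 (23.8% of windows) and the RUNX-type letters at bases 254 to 259 (16.8%). The Il21r window held none of the STAT patterns, and carried the FOXO-type letters at bases 213 to 219 (3.65% of windows), which overlap the reversed RUNX-type letters at bases 218 to 223. The STAT6-type pattern, found in 6.95% of windows, was in 0 of the 6 windows of the 5 genes. These matches describe letters only, and binding was not measured.

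Il7r encodes IL-7Rα (CD127), the chain that binds IL-7. The mean Il7r signal over the 9 arrays was above that of 95.9% of genes tested. Its log2 signal was 7.53, 7.92 and 7.76 on the Y3/CD103-/- arrays, 7.17, 7.92 and 7.37 on the Y3 arrays, and 8.88, 8.82 and 9 on the WT arrays. Every array of both mutant groups thus lay about 0.9 log2 or more below the lowest WT array, while the mutant groups overlapped each other. In Y3/CD103-/- Il7r was 2.24-fold lower than in WT (log2 difference -1.16 ± 0.20 (SE), 95% interval -1.61 to -0.72, limma adjusted p = 0.0271). In Y3 it was 2.67-fold lower than in WT (log2 difference -1.42 ± 0.20, interval -1.87 to -0.97, adjusted p = 0.0124). Both mutant groups are set against the same WT arrays, so the falls are not independent of each other. The difference between Y3/CD103-/- and Y3 did not pass (log2 0.25 ± 0.20, interval -0.19 to 0.70, adjusted p = 0.700).

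Across the 12792 genes tested, 0.836% passed in Y3/CD103-/- versus WT and 0.281% passed as lower, and in Y3 versus WT the shares were 0.79% and 0.172%. Among the 5 receptor genes, 2 passed in Y3/CD103-/- versus WT and 1 in Y3 versus WT. At an unadjusted p under 0.05 there were 2 in Y3/CD103-/- (13.3% of all genes tested) and 2 in Y3 (17%). Larger falls than that of Il7r were measured for 0.414% of genes tested in Y3/CD103-/- and for 0.367% in Y3, and by size Il7r was number 18 of 36 and number 9 of 22 falls that passed. The scale of the arrays differed slightly between groups: over the genes tested the log2 difference had a median of 0.04 in Y3/CD103-/-, 0.15 in Y3 and, between Y3/CD103-/- and Y3, -0.10. In Y3, 79 genes passed as higher and 22 as lower, against 46 and 32 after quantile normalization and 46 and 54 after centring each array on its median over the genes tested, and Il7r passed under each of these scalings (log2 difference -1.58 after centring, adjusted p = 0.0173).

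The 3 Y3 arrays were uneven for Il7r, with array 2 above arrays 1 and 3. With Y3 array 1 or Y3 array 3 left out, its fall in Y3 no longer passed (adjusted p = 0.0850 and 0.0984), and its fall in Y3/CD103-/- passed in 2 of the 9 fits that leave out 1 array. In those 9 fits the log2 difference in Y3/CD103-/- stayed between -1.25 and -1.06 and that in Y3 between -1.64 and -1.26.

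**Figure D1:**
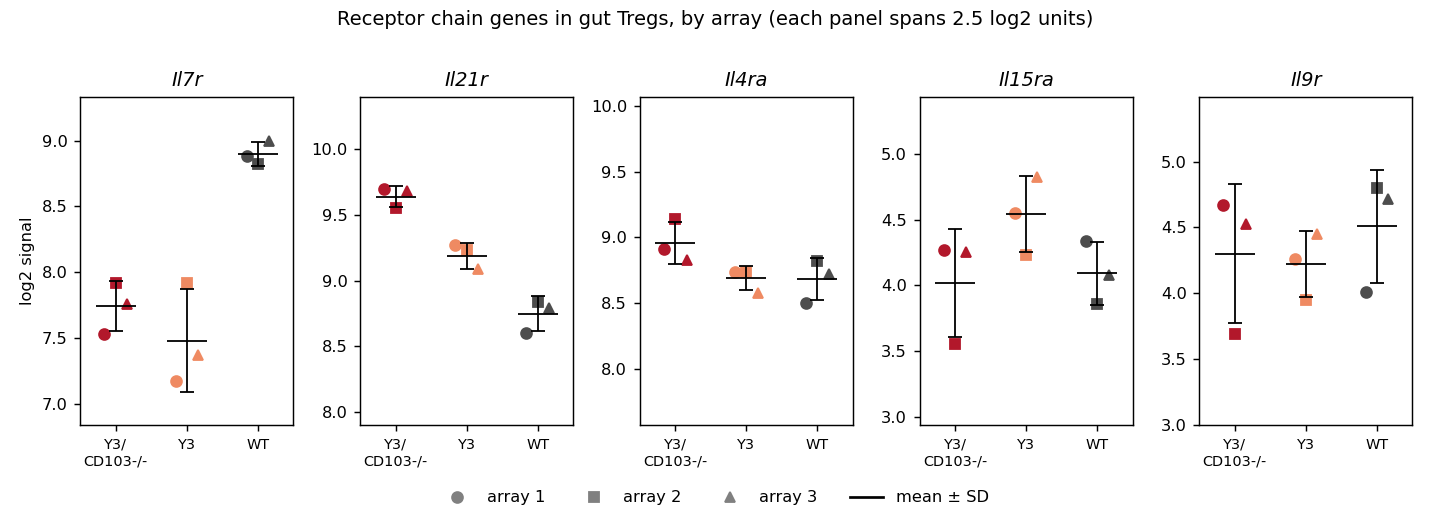
Log2 signal of the 5 receptor genes on each array (y axis; every panel spans 2.5 log2 units) in Y3/CD103-/-, Y3 and WT, with the mean and SD of 3 arrays in black. All Y3/CD103-/- and Y3 points of Il7r lie below the WT points, those of Il21r form 3 separate levels, and the groups overlap for Il15ra and Il9r.

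Markers of other cells that carry the IL-7 receptor were read beside it. Of 6 genes that mark naive and central memory T cells, 4 were measured (Ccr7, S1pr1, Lef1 and Klf2), and their summed linear signal ran from 551 to 694 in Y3/CD103-/-, 682 to 929 in Y3 and 1010 to 1230 in WT. Both mutant ranges lay below WT, and 0 of the 4 passed in any comparison. Against WT, 2 in Y3 and 4 in Y3/CD103-/- had an unadjusted limma p under 0.05, beside 17% and 13.3% of all genes tested. Ccr7, the lymph node homing receptor, was at log2 8.73 ± 0.20 (SD, n = 3) in Y3/CD103-/-, 9.11 ± 0.30 in Y3 and 9.59 ± 0.11 in WT (adjusted p = 0.0669 and 0.232 for the mutant groups in that order). Innate lymphoid cell markers had a summed signal of 953 to 1130 in Y3/CD103-/-, 915 to 1060 in Y3 and 730 to 919 in WT over 6 of 7 genes, so that Y3/CD103-/- lay above WT and Y3 overlapped it. Il22, the cytokine that defines 1 branch of those cells, was among the dim genes that were not tested. Of the 5 tested, 3 were higher and 2 lower than WT in Y3/CD103-/-, 4 were higher and 1 lower in Y3, and 0 passed. The linear sum is weighted to Id2, the brightest of them. Id2 was at log2 9.61 ± 0.08 in Y3/CD103-/-, 9.44 ± 0.14 in Y3 and 9.26 ± 0.2 in WT (adjusted p = 0.366 and 0.581 for the mutant groups). Conventional CD4 T cell markers, 6 of 6 measured, summed to 1980 to 2450 in Y3/CD103-/-, 2180 to 2390 in Y3 and 1300 to 1440 in WT, higher in both mutant groups. Of these, the chemokine gene Ccl5 rose in Y3/CD103-/- (log2 difference 1.80, adjusted p = 0.00161) and in Y3 (1.91, adjusted p = 0.00161), as did the interferon gamma gene Ifng (1.46, adjusted p = 0.0197, and 1.63, adjusted p = 0.0119), and Themis, a T cell receptor signalling gene, rose in Y3 (1.01, adjusted p = 0.0298). Cd40lg, Il17a and Bhlhe40 of the same list passed in no comparison. Cd40lg differed from WT by -0.11 in Y3/CD103-/- and 0.35 in Y3, Il17a by 0.81 and 0.45, and Bhlhe40 by 0.27 and 0.22. The sum is weighted to Bhlhe40 and Ccl5, the brightest genes of the list. The part of these cell types in the Il7r difference was not tested, and in a sorted bulk sample fewer Il7r-expressing cells and less Il7r RNA per cell cannot be told apart.

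Il21r encodes the IL-21 receptor, through which a cytokine of follicular helper and Th17 cells acts on B and T cells. Its log2 signal was 9.70, 9.55 and 9.68 on the Y3/CD103-/- arrays, 9.27, 9.23 and 9.09 on the Y3 arrays, and 8.60, 8.84 and 8.79 on the WT arrays. The 3 groups did not overlap, with Y3/CD103-/- highest and WT lowest. In Y3/CD103-/- Il21r was 1.86-fold higher than in WT (log2 difference 0.90 ± 0.15 (SE), interval 0.58 to 1.22, adjusted p = 0.0223). The share of genes that passed as higher in that comparison was 0.555%, and 0.876% of genes tested had a larger positive difference than Il21r.

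The difference between Y3 and WT did not pass for Il21r (log2 difference 0.45 ± 0.15, interval 0.13 to 0.77, adjusted p = 0.174), nor did that between Y3/CD103-/- and Y3 (0.45 ± 0.15, interval 0.13 to 0.77, adjusted p = 0.385). Separation of the groups was itself common: the groups did not overlap for 17.4% of genes in Y3/CD103-/- versus WT, 23.9% in Y3 versus WT and 18.6% in Y3/CD103-/- versus Y3. The rise in Y3/CD103-/- passed in 4 of the 9 fits that leave out 1 array, with a log2 difference between 0.83 and 0.95. With Y3/CD103-/- array 1, 2 or 3 left out the adjusted p was 0.0640, 0.0511 and 0.0911, and with WT array 1 or 3 left out it was 0.0637 and 0.0515. B and plasma cell markers, from cells that also carry this receptor, gave a summed signal of 93.8 to 170 in Y3/CD103-/-, 71.4 to 107 in Y3 and 113 to 157 in WT over 6 of 7 genes. The B cell surface protein gene Ms4a1 was too dim to be tested, and the part of these cells in the Il21r difference was not tested.

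Il4ra encodes the α chain of the IL-4 receptor, which also forms the IL-13 receptor with Il13ra1. It lies next to Il21r in the RefSeq gene order. Its log2 signal was 8.91, 9.14 and 8.83 on the Y3/CD103-/- arrays, 8.74, 8.74 and 8.58 on the Y3 arrays, and 8.5, 8.82 and 8.72 on the WT arrays. All Y3/CD103-/- arrays were above the others by a small margin, and Y3 and WT overlapped. The log2 difference from WT was 0.28 ± 0.16 in Y3/CD103-/- (interval -0.07 to 0.62, adjusted p = 0.494) and 0.01 ± 0.16 in Y3 (interval -0.34 to 0.36, adjusted p = 0.981). Between Y3/CD103-/- and Y3 it was 0.27 ± 0.16 (interval -0.08 to 0.61, adjusted p = 0.587).

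Il15ra encodes the high-affinity IL-15 binding chain, which presents IL-15 to receptors made of IL-2Rβ and the common gamma chain. Its log2 signal was 4.27, 3.55 and 4.25 on the Y3/CD103-/- arrays, 4.55, 4.23 and 4.82 on the Y3 arrays, and 4.34, 3.86 and 4.08 on the WT arrays. The groups overlapped in all 3 comparisons. The log2 difference from WT was -0.07 ± 0.24 in Y3/CD103-/- (interval -0.59 to 0.45, adjusted p = 0.930) and 0.44 ± 0.24 in Y3 (interval -0.08 to 0.96, adjusted p = 0.361). Y3/CD103-/- differed from Y3 by -0.52 ± 0.24 (interval -1.03 to 0.00, adjusted p = 0.509).

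Il9r encodes the IL-9 receptor α chain, best known on mast cells and some T and B cells. Its log2 signal was 4.67, 3.69 and 4.53 on the Y3/CD103-/- arrays, 4.26, 3.95 and 4.45 on the Y3 arrays, and 4.01, 4.80 and 4.72 on the WT arrays. These ranges overlapped throughout, and Il9r had the widest standard error of the 5 genes. Its log2 difference from WT was -0.21 ± 0.29 in Y3/CD103-/- (interval -0.85 to 0.42, adjusted p = 0.802) and -0.29 ± 0.29 in Y3 (interval -0.92 to 0.34, adjusted p = 0.626). Between Y3/CD103-/- and Y3 it was 0.08 ± 0.29 (interval -0.56 to 0.71, adjusted p = 0.952). All 7 mast cell and granulocyte markers were too dim to be tested. The intervals of Il9r and Il15ra still hold differences of 1.5-fold or more in at least 1 direction. So do those of Il4ra in Y3/CD103-/- versus WT and versus Y3, though not in Y3 versus WT. The arrays do not show that these genes were alike between the groups so compared.

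**Figure D2:**
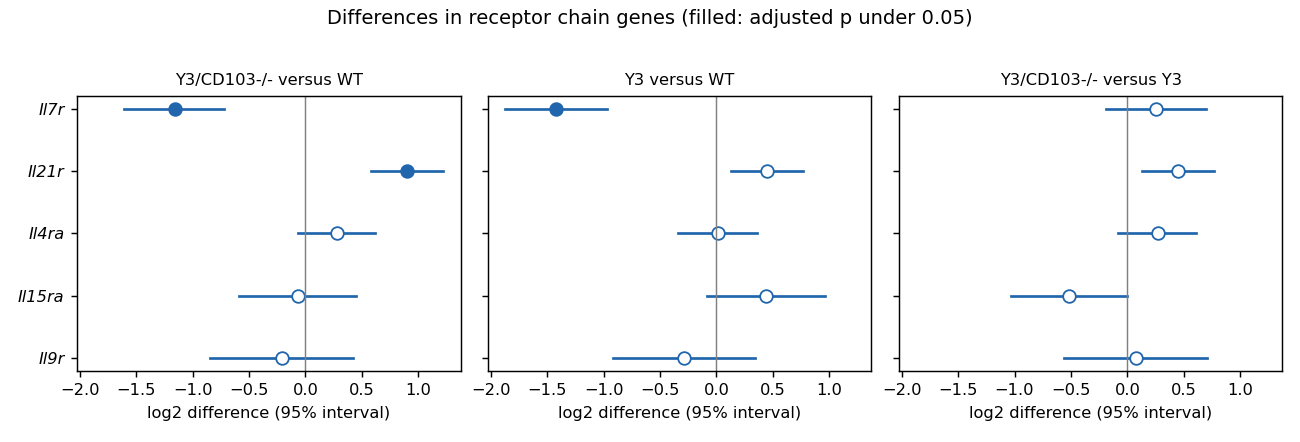
Log2 difference (x axis, with its 95% interval) of each receptor gene in the 3 comparisons, with filled points where the adjusted p is under 0.05. Il7r is filled in both comparisons with WT, Il21r in Y3/CD103-/- versus WT only, and 0 genes are filled in Y3/CD103-/- versus Y3.

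In Y3/CD103-/- versus Y3, 0 of the 5 receptor genes passed. In limma 1 of 12792 genes passed (0.00782%), and 9.9% had an unadjusted p under 0.05. Of the 5, Il21r had such a p (0.0103).

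Signalling genes around the receptors were read from a list of 60, of which 51 were tested. In Y3/CD103-/- versus WT, 1 rose and 2 fell, with a median log2 difference of 0.02 beside 0.04 over all genes. In Y3 versus WT, 2 rose and 1 fell, with a median of 0.11 beside 0.15. In Y3/CD103-/- versus Y3, 0 passed in limma, 5 had an unadjusted p under 0.05 (beside 9.9% of all genes tested), and the median was -0.03 beside -0.10.

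The IL-2 receptor has 2 measured chains, both with every mutant array below every WT array, and Il2rg was not analysed here. Groups that did not overlap were common over all genes tested, at 17.4% in Y3/CD103-/- versus WT and 23.9% in Y3 versus WT. Il2ra, the α chain (CD25), was at log2 7.28 ± 0.16 (SD, n = 3) in Y3/CD103-/-, 7.5 ± 0.1 in Y3 and 8.15 ± 0.04 in WT, and it fell in Y3/CD103-/- (log2 difference -0.86, adjusted p = 0.0258). That call passed in 1 of the 9 fits that leave out 1 array (adjusted p from 0.0463 to 0.0809). The Il2ra difference in Y3 versus WT was -0.65 (adjusted p = 0.079), and that in Y3/CD103-/- versus Y3 was -0.22 (adjusted p = 0.644). Neither passed. Il2rb was at 8.16 ± 0.31 in Y3/CD103-/-, 8.15 ± 0.32 in Y3 and 9.19 ± 0.22 in WT, and its differences did not pass (adjusted p = 0.0590 in Y3/CD103-/- and 0.0565 in Y3). Whether this feature reads RNA of the altered β chain in the mutants was not tested. Crlf2, which joins the IL-7 receptor α chain to bind TSLP, differed from WT by 0.57 in Y3/CD103-/- (adjusted p = 0.201) and by 0.33 in Y3 (adjusted p = 0.384). Il13ra1 differed by 0.38 and 0.58 in the same order (adjusted p = 0.619 and 0.330). The ligand genes gave low signals, with 4 of 8 tested (Il4, Il7, Il21 and Il13) and 0 that passed. Il4 was the one with an unadjusted p under 0.05 in any comparison. It was at log2 3.62 ± 0.05 in Y3/CD103-/-, 4.29 ± 0.36 in Y3 and 3.82 ± 0.38 in WT (Y3/CD103-/- versus Y3, log2 difference -0.67, adjusted p = 0.406).

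Of the kinases and STAT factors, 7 of 9 were tested, and Jak3 was not analysed here. Stat3, the main carrier of the IL-21 signal, was at log2 8.77, 8.72 and 8.73 on the Y3/CD103-/- arrays, 8.59, 8.37 and 8.58 on the Y3 arrays, and 8.02, 8.09 and 7.90 on the WT arrays. Its 3 groups did not overlap, as was so for Il21r and also for Stat5b, Grb2 and Ets1, and, with Y3 highest, for Batf. Over all genes tested, the groups did not overlap for 17.4% in Y3/CD103-/- versus WT, 23.9% in Y3 versus WT and 18.6% in Y3/CD103-/- versus Y3. These shares are for pairs of groups, and the share with all 3 groups apart was not counted. Stat3 rose in Y3/CD103-/- (log2 difference 0.74 ± 0.14 (SE), adjusted p = 0.0447). That call did not pass in any of the 9 fits that leave out 1 array (adjusted p from 0.0595 to 0.139), and the difference in Y3 was 0.51 (adjusted p = 0.123). Stat5a differed from WT by 0.72 in Y3/CD103-/- (adjusted p = 0.0881) and by 0.61 in Y3 (adjusted p = 0.123). Stat5b differed by 0.48 (adjusted p = 0.147) and 0.30 (adjusted p = 0.291). Stat6, the IL-4 factor, differed by -0.21 and -0.10 (adjusted p = 0.585 and 0.767), and Jak1 by 0.05 and 0.14 (adjusted p = 0.920 and 0.607).

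Of 8 feedback inhibitors and phosphatases, 1 fell in Y3/CD103-/- (median log2 difference of the group -0.05), and 1 rose and 1 fell in Y3 (median 0.07). Socs2, a STAT5-induced inhibitor, was at log2 3.39, 4.57 and 3.61 on the Y3/CD103-/- arrays, 2.83, 3.58 and 3.34 on the Y3 arrays, and 5.52, 5.27 and 5.31 on the WT arrays. The Y3 values were near the medians of those arrays (3.19 to 3.20), and that on Y3 array 1 was below its median. Socs2 was therefore not tested under the filter on all 9 arrays. As for Il7r, every mutant array lay below every WT array. Separation in either direction was seen for 17.4% of genes tested in Y3/CD103-/- versus WT and 23.9% in Y3 versus WT. Socs2 fell in Y3/CD103-/- (log2 difference -1.51, adjusted p = 0.0447) and in Y3 (-2.12, adjusted p = 0.0119). Leaving out 1 array, the call held in 1 of 9 fits for Y3/CD103-/- and in 7 of 9 for Y3. Socs3, which restrains STAT3 signals, rose in Y3 (0.91, adjusted p = 0.0392) and differed by 0.71 in Y3/CD103-/- (adjusted p = 0.0922), and the rise in Y3 passed in 0 of the 9 fits that leave out 1 array and neither after quantile normalization nor after centring over the genes tested. Socs1 differed by 0.57 in Y3/CD103-/- (adjusted p = 0.189) and 0.87 in Y3 (adjusted p = 0.0555), and the phosphatase gene Ptpn11 by 0.47 (0.311) and 0.85 (0.0750).

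Of 8 survival and growth targets (among them Bcl2, Mcl1, Pim1 and Myc), 0 passed in any comparison. In both comparisons with WT 0 had an unadjusted limma p under 0.05, beside 13.3% of all genes tested in Y3/CD103-/- and 17% in Y3. Bcl2, the survival gene that IL-7 induces, was at log2 6.43 ± 0.15 (SD, n = 3) in Y3/CD103-/-, 7.05 ± 0.34 in Y3 and 6.73 ± 0.06 in WT, and its difference between Y3/CD103-/- and Y3 was -0.62 (adjusted p = 0.343). Among 7 factors that act downstream of STAT6 or STAT3, Batf rose in Y3 (0.83 ± 0.15, adjusted p = 0.0320; passed in 3 of 9 fits with 1 array left out and under neither of those scalings) and differed by 0.57 in Y3/CD103-/- (adjusted p = 0.115). Gata3, a target of IL-4 and STAT6, differed from WT by -0.60 in Y3/CD103-/- (adjusted p = 0.0847) and by -0.69 in Y3 (adjusted p = 0.0551). Irf4, a partner of BATF, differed by -0.62 (adjusted p = 0.238) and -0.51 (adjusted p = 0.265) in the same order. Of 6 adaptor and PI3K genes 5 were tested and 0 passed, and Grb2, the adaptor that links receptors to the RAS pathway, differed by 0.59 (adjusted p = 0.104) and 0.33 (adjusted p = 0.302).

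Known regulators of Il7r, together with Klf2, were read as a group of 8, and 0 passed in any comparison. An unadjusted limma p under 0.05 was found for 2 in Y3/CD103-/- versus WT, 3 in Y3 versus WT and 1 in Y3/CD103-/- versus Y3. Over all genes tested the shares with such a p were 13.3%, 17% and 9.9% in that order. Foxo1 and Gabpa were named for their roles after their values were seen. Foxo1, a transcription factor that activates Il7r, differed from WT by 0.19 in Y3/CD103-/- (adjusted p = 0.612) and 0.18 in Y3 (adjusted p = 0.547). Gabpa, the ETS factor known to bind the Il7r promoter, differed by 0.03 (adjusted p = 0.959) and 0.16 (adjusted p = 0.585). Gfi1, a repressor of Il7r, differed by -0.04 (adjusted p = 0.966) and 0.55 (adjusted p = 0.256). Foxp1, which opposes FOXO1 at Il7r, differed by -0.47 (adjusted p = 0.302) and -0.49 (adjusted p = 0.224). The smallest p-values against WT were those of Klf2, at -0.71 in Y3/CD103-/- (adjusted p = 0.0799) and -0.70 in Y3 (adjusted p = 0.0832). Klf2 is a FOXO1 target that keeps T cells in circulation, and it is also counted among the naive and central memory T cell markers above.

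**Figure D3:**
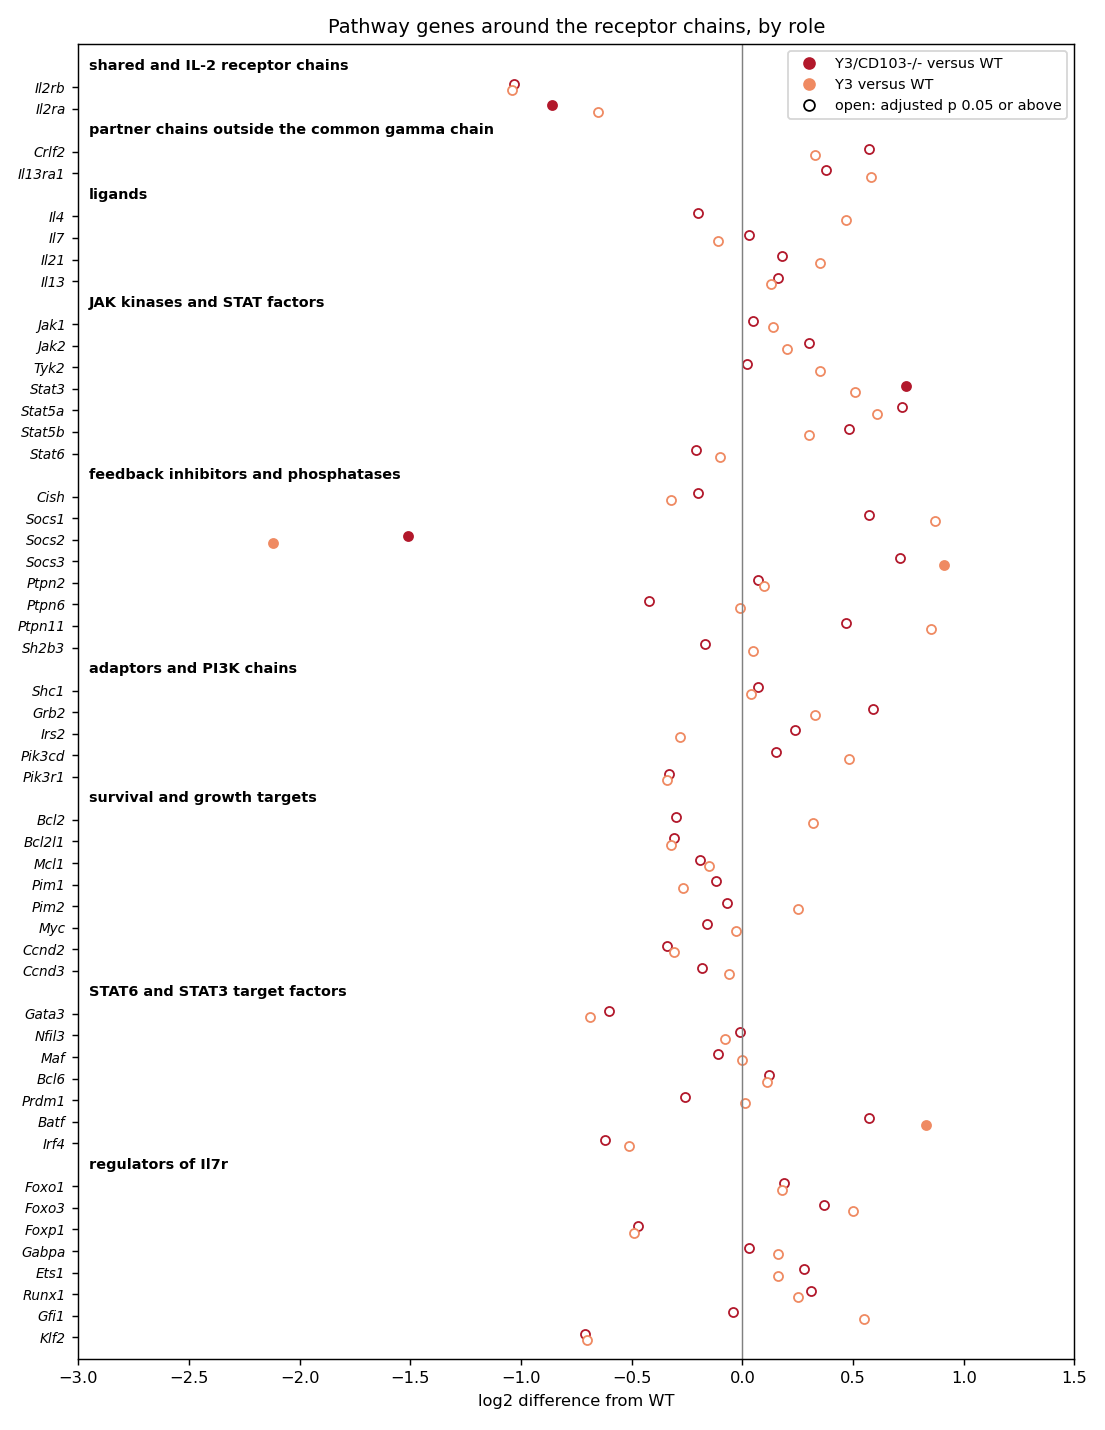
Log2 difference from WT (x axis) of the 51 tested pathway genes, by role, in Y3/CD103-/- and in Y3, with filled points where the adjusted p is under 0.05. The filled points are Il2ra, Stat3 and Socs2 in Y3/CD103-/- and Socs2, Socs3 and Batf in Y3.

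Genes whose pattern over the arrays was most like that of Il7r or Il21r were found by the mean absolute difference of log2 values over 9 arrays, after each gene was centred on its own mean. The 5 nearest to Il7r were Pde7b, a cyclic AMP phosphodiesterase (0.20), Lgmn, a lysosomal protease (0.22), Il2rb (0.22), Ccr2, a chemokine receptor (0.23), and Slc51a, a bile acid transporter of the intestinal epithelium (0.24), where the median over 11333 genes was 0.65. Of these 5, 0 passed in any comparison, with adjusted p in Y3 versus WT from 0.0565 for Il2rb to 0.123 for Slc51a. The intestinal epithelial markers, 8 of 8 measured, summed to 207 to 947 in Y3/CD103-/-, 209 to 316 in Y3 and 587 to 1600 in WT, with Y3 below WT and Y3/CD103-/- overlapping it, and their part in these patterns was not tested. The 5 nearest to Il21r were Ern1, the IRE1α sensor of unfolded protein (0.09), Dennd4a, an exchange factor for Rab proteins (0.09), Nfkb2, a subunit of NF-kB (0.10), Emb, a cell adhesion protein (0.11), and Got1, an aspartate aminotransferase (0.11), where the median was 0.37. Ern1 (log2 difference 1.01, adjusted p = 0.0200), Nfkb2 (0.83, adjusted p = 0.0362) and Dennd4a (0.74, adjusted p = 0.0412) rose in Y3/CD103-/- against WT, and Emb (0.67, adjusted p = 0.0696) and Got1 (0.69, adjusted p = 0.0685) did not pass.

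**Figure D4:**
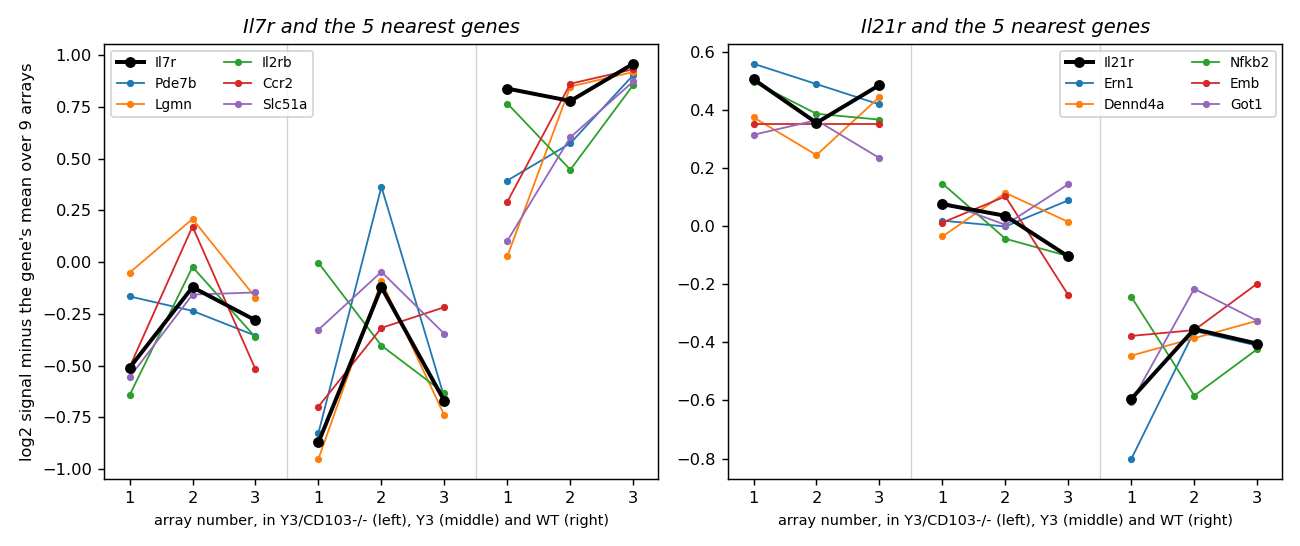
Log2 signal minus each gene's own mean over 9 arrays (y axis) for Il7r, Il21r and the 5 genes nearest to each, by array in Y3/CD103-/-, Y3 and WT; lines link the arrays of 1 group and carry no order. The genes were picked for their likeness to Il7r or Il21r, so the shared shape follows from the choice; single arrays depart from it, such as Lgmn on WT array 1 (5.17, below Y3/CD103-/- array 2 at 5.35) and Emb on Y3 array 3 (9.95, below WT array 3 at 9.99).

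The sorted cells carried the defining genes of Tregs in all groups. Foxp3 was at log2 9.55 ± 0.06 (SD, n = 3) in Y3/CD103-/-, 9.52 ± 0.17 in Y3 and 9.38 ± 0.09 in WT, and the 6 Treg and T cell markers summed to 4720 to 5070, 4840 to 4960 and 4650 to 4810 in that order of groups. Macrophage and dendritic cell markers, 7 of 8 measured, summed to 230 to 262 in Y3/CD103-/-, 161 to 181 in Y3 and 185 to 317 in WT, and the class II gene H2-Aa fell in Y3 (log2 difference -1.80, adjusted p = 0.0264). Cd68 of the same list went the other way without passing, at 0.74 in Y3/CD103-/- (adjusted p = 0.0801) and 0.77 in Y3 (adjusted p = 0.0721). The CD103 gene, Itgae, was lower in Y3/CD103-/- than in Y3 (log2 difference -2.81, adjusted p = 0.000679), the gene that passed there, and lower than in WT (-1.41, adjusted p = 0.0159), and it was higher in Y3 than in WT (1.40, adjusted p = 0.0169). Array medians lay between 3.15 and 3.23 log2, and the spread of all values was wider on Y3 arrays 1 and 3 (SD 1.87 and 1.88) than on the others (1.70 to 1.77). Y3 arrays 1 and 3 were also the most correlated pair within any group (r = 0.984, beside 0.951 to 0.973 for the other pairs). The labels do not tell whether they are independent samples.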

How the data were processed

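RNA of sorted gut Tregs was measured on 9 arrays in 3 groups, taken from the sample titles. The deposited values are log2 signals that the authors made with RMA, per the submitters' processing notes; no source used here gives its settings or a genome build. That the scale is log2 follows from the range of the values. No batch is given in the labels, and precision is limited by how few arrays there are. Of 39137 features, 23521 named 1 gene; the brightest feature per gene was kept, and a gene was tested if it exceeded its array's median on at least 3 arrays (12792 of 22180 genes). Too dim means that it failed this filter.

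All 9 arrays entered 1 model of group means in limma 3.58.1 (lmFit and eBayes; R 4.3.3; 10.8 degrees of freedom), 2-sided, with Benjamini-Hochberg adjustment over all genes tested and a threshold of 0.05. The fit was tested on simulated data. Marker sums add linear signals. Alternatives changed the filter, features per gene, scaling, variance model, array weights, arrays in the fit, a replicate block and the threshold; centring over the genes tested was chosen after seeing the data. The genes and lists were chosen with earlier results of these data known, and the promoter motifs after the sequences were read. Named genes were the receptors, pathway genes that passed, 9 fixed pathway genes, up to 3 further genes per list, and the 5 nearest in pattern to each receptor gene that passed.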

Additional observations from a re-analysis of the deposited data

How the results depend on the processing

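For Y3 versus WT, Il7r (log2 difference -1.42) passed in 10 of 11 alternatives other than leaving out 1 array. With Y3 arrays 1 and 3, the most correlated pair within any group, averaged as 1 sample it was -1.31 (adjusted p = 0.0842). Il21r (0.45) passed with a trended, robust variance (0.45, adjusted p = 0.0151), which made 2 receptor genes that changed in place of 1; averaging those Y3 arrays made it 0. For Y3/CD103-/- versus WT, Il7r (-1.16) did not pass without a filter (-1.16), with array weights (-1.15) or with only the 2 groups in the fit (-1.16; adjusted p from 0.0540 to 0.0630), and Il21r (0.90) did not pass without a filter (0.90, adjusted p = 0.0537), with only the 2 groups (0.90, adjusted p = 0.101) or with the replicate block (0.90, adjusted p = 0.0568). The 2 receptor genes that changed there became 0 without a filter or with only the 2 groups, and 1 with array weights or the replicate block; the cause was not tested, beyond that 22180 genes are adjusted for without a filter and fewer arrays enter with 2 groups. The other receptor genes passed under none of these settings, and in Y3/CD103-/- versus Y3 the count stayed at 0.

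The count of 3 pathway genes that changed in Y3 versus WT became 1 without a filter, 8 with a filter on all 9 arrays, 5 after centring over the genes tested, 11 with a trended, robust variance, 8 with array weights, 1 with only 2 groups, 1 with the replicate block, 0 with Y3 arrays 1 and 3 averaged and 9 at an adjusted p under 0.10. These were not always the same genes: the rises of Socs3 and Batf were lost and Socs2 kept after centring over the genes tested (with falls of Gata3, Il2ra, Il2rb and Klf2) and after quantile normalization (with falls of Gata3, Il2ra and Klf2). The count of 3 in Y3/CD103-/- versus WT became 0 without a filter, 7 with the filter on all 9 arrays and 1 after centring on all features, then 11, 0, 0, 0 and 0 with the variance, weights, 2-group, replicate block and averaging settings, and 8 at 0.10. Leaving out 1 array at a time, Il7r ran from -1.64 to -1.26 in Y3 and from -1.25 to -1.06 in Y3/CD103-/-, and Il21r from 0.83 to 0.95 in Y3/CD103-/-. Receptor genes that changed then numbered 0 to 1 and 0 to 2, and pathway genes 0 to 2 and 0 to 1, in Y3 and Y3/CD103-/- in that order.

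Same-numbered arrays did not deviate together (correlations of deviations from -0.04 to 0.11 over 12792 genes), and in 7 of 18 cases an array was closest to its own number in another group. Over all genes, 107 passed in Y3/CD103-/- versus WT and 101 in Y3 versus WT; the counts were 55 and 54 with the replicate block, 54 and 52 without a filter, 215 and 222 with a filter on all 9 arrays, 309 and 346 with the trended, robust variance, 60 and 346 with array weights, 17 and 63 with only 2 groups, and 62 and 12 with Y3 arrays 1 and 3 averaged. In Y3/CD103-/- versus Y3 the 1 gene became 10 with the trended, robust variance, 9 with array weights and 3 with the mean of a gene's features. The next brightest feature could not be tried, since each receptor gene has 1.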
